A study of Homo sapiens with 12 samples.

Results

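The aldehyde dehydrogenases described here were 10 genes, ALDH1A1, ALDH1A3, ALDH1B1, ALDH1L1, ALDH1L2, ALDH2, ALDH3A1, ALDH3A2, ALDH7A1 and ALDH9A1, chosen by symbol from the 58174 genes of each expression table. All 10 symbols were found, each with 1 Ensembl identifier. Their mRNA was measured in the human glioblastoma lines U87 (U-87 MG) and U118 (U-118 MG), each as sensitive cells and as resistant cells. The resistant cells formed after exposure to temozolomide (TMZ), an alkylating drug, at 50 μM, and no dose is listed for the sensitive cells. Each of the 4 groups, 2 per line, had 3 libraries. Per the methods, all groups started from cells depleted of CD133 and CD15 by magnetic sorting and were kept in serum with BMP2, and the resistant cells were aggregations grown out of the few cells that survived TMZ. The study calls the sensitive cells control cells and the resistant cells aggregation cells. Nothing in the labels says that the 3 libraries of a group came from separate cultures, so the p-values given here measure only the spread between libraries.

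Aldehyde dehydrogenases oxidize aldehydes to carboxylic acids with NAD+ or NADP+. The ALDH1A enzymes make retinoic acid from retinaldehyde and are the main source of the ALDH activity used to sort stem-like cells from many tumors, including glioblastoma. Other members clear acetaldehyde and lipid peroxidation products in mitochondria (ALDH2, ALDH1B1), oxidize long-chain fatty aldehydes (ALDH3A2) or medium-chain and aromatic aldehydes (ALDH3A1), act in lysine breakdown (ALDH7A1), oxidize aminoaldehydes (ALDH9A1), or release carbon dioxide from formyl-tetrahydrofolate (ALDH1L1 in the cytosol, ALDH1L2 in mitochondria).

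Values are TPM, a relative abundance that divides by transcript length and sums to a fixed total in each library. Read counts cannot be had from TPM, so library depth is unknown and the error given is the spread between libraries. Between 13270 and 15290 genes reached 1 TPM in a library. Over 16382 genes, the U118 sensitive libraries stood apart from every other group, with rank correlations of 0.783 to 0.831 with U87 sensitive, 0.789 to 0.817 with U87 resistant and 0.808 to 0.839 with U118 resistant libraries. The U118 resistant libraries correlated at 0.895 to 0.913 with the U87 libraries. The identity of the U118 cells is therefore in doubt, and was not tested here: in every U118 comparison, a change under TMZ and a difference between unlike cells cannot be told apart. Each U118 comparison needs both groups, so none can be made without them, and U118 groups are named by their labels throughout. U118 resistant replicate 1 differed from the other two of its group, with 13.2% of its TPM in mitochondrially encoded genes against 29.9% and 26.1%. In U118 sensitive replicate 3 that share was 19.7%, against 7.42% and 8.55% in replicates 1 and 2 of its group. Of 8 glial or glioma markers, 4 had a mean of at least 1 TPM in each U87 group and 3 in each U118 group. VIM was at 4425 to 7149 TPM, NES at 5.76 to 24.1 TPM and SLC1A3 at 1.79 to 9.56 TPM in all libraries, while GFAP was at 0.168 to 0.693 TPM and AQP4 was listed at 0. Of 3 neuronal markers, 1 had a mean of at least 1 TPM in each U87 group and 2 in each U118 group, with SNAP25 at 3.01 to 13.4 TPM. Of 3 leukocyte, 3 endothelial and 3 epithelial markers, 0 had a mean of 1 TPM in any group. All 15 housekeeping genes were above 1 TPM on average in every group.

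Changes are log2 fold changes of TPM + 1, resistant minus sensitive, which understate the change of genes with low values. A gene was tested where at least 3 of the 6 libraries of the line reached 1 TPM, and was called at a limma adjusted p under 0.05 with a change of at least 1 in size. In U87, 9 members were tested: 1 was called higher (3.03% of the 13845 genes tested were), 3 were called lower (7.79%) and 5 were not called, with 10.8% of all genes called in either direction. In U118, 7 members were tested: 1 was called higher (8.64% of 15527 genes), 2 were called lower (26.6%) and 4 were not called, so the share of members called, 3 of 7, was near the 35.3% of all genes. ALDH1A1 and ALDH1A3 in U87, and ALDH1A3, ALDH3A1 and ALDH7A1 in U118, passed the filter through the group in which they were high, with at most 1 library of the other group at 1 TPM, so these members had to differ and the counts carry no weight of their own. ALDH3A1 in U87 and ALDH1A1, ALDH1L1 and ALDH2 in U118 were below the filter. In bulk RNA, a change in every cell and a change in the share of cells that hold a transcript cannot be told apart.

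**Figure D1:**
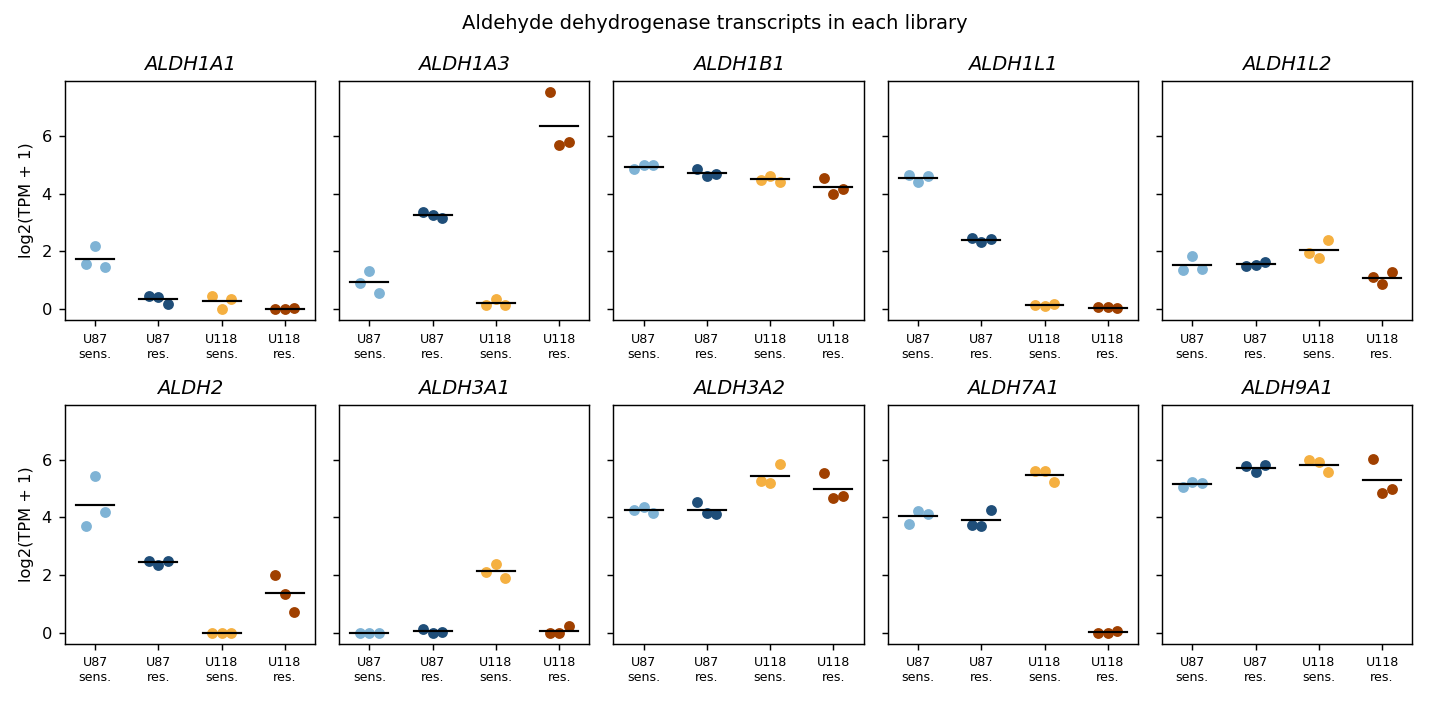
Level of each aldehyde dehydrogenase as log2(TPM + 1) (vertical axis) in the 3 libraries (points) of U87 and U118 sensitive (sens.) and resistant (res.) cells, with the group mean as a line. ALDH1A3 was higher in all resistant libraries of both lines, and ALDH7A1 was near 0 in the 3 U118 resistant libraries. The lines come from separate tables.

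The retinaldehyde dehydrogenases ALDH1A3 and ALDH1A1 moved in opposite directions in U87. ALDH1A3 rose in both lines and became the most abundant member by mean in U118 resistant cells. Its library range there overlapped that of ALDH9A1, but ALDH1A3 was higher within every library. The values were 183, 50.8 and 54.4 TPM against 63.6, 27.6 and 30.7 TPM for ALDH9A1. ALDH1A3 (ENSG00000184254, chr15:100877714-100916626, plus strand, GRCh38) measured 0.891, 1.53 and 0.473 TPM in the U87 sensitive libraries and 9.40, 8.66 and 7.85 TPM in the U87 resistant libraries. The groups did not overlap, and the 3 resistant values lay close together. The mean went from 0.964 ± 0.532 to 8.64 ± 0.778 TPM (SD, n = 3 each), which is 8.96-fold, with a log2 fold change of 2.33 (SE 0.22, limma adjusted p = 0.000387).

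In U118 the same gene measured 0.112, 0.278 and 0.107 TPM in sensitive libraries and 183, 50.8 and 54.4 TPM in resistant libraries. Every resistant value lay far above every sensitive value, and resistant replicate 1 held more than the other two together. The mean was 0.165 ± 0.0975 TPM in sensitive and 96.2 ± 75.5 TPM in resistant cells (SD, n = 3 each), and 52.6 TPM in resistant cells without replicate 1. The ratio of the means was 582, but it divides by sensitive values near 0 and includes the high replicate 1, so its size is uncertain. The log2 fold change was 6.12 (SE 0.45, limma adjusted p = 8.96e-06), and it was 5.53 to 6.44 when any 1 library was left out. The U118 change exceeded the U87 change by 3.79 on the log2 scale (SE 0.56, limma interaction adjusted p = 0.000186), in a test in which 12% of 16382 genes were called higher.

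ALDH1A3 has an antisense gene, ALDH1A3-AS1 (chr15:100892859-100919283, minus strand), that overlaps its body. Its TPM was 9.50, 1.28 and 1.17 in the U118 resistant libraries and at most 0.134 in the other 9. It was thus highest in the replicate in which ALDH1A3 was highest. Whether the counting used strand is not stated, so reads of the pair cannot be told apart.

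The 300-base RefSeq promoter window of ALDH1A3 (GRCh38.p14, 250 bases before to 50 after its start) had 81.7% GC and an observed to expected CpG ratio of 0.923, above 83.5% of the 35116 windows in the table, whose median was 0.579. Since the study centres on HIF1α and HIF2α, the hypoxia response element core (ACGTG or GCGTG, either strand) was searched, and this window held 2 matches, with 48.4% of all windows holding at least 1. Both are shown with their flanks because ALDH1A3 is the member that rose in both lines. The core is in capitals, the first being the reverse complement of GCGTG, and their first bases lie 197 and 43 bases before the start. GENCODE places both in exons of longer ALDH1A3 transcripts.
ALDH1A3 chr15:100879622-100879651, plus strand: gacggtccgcggCACGCgggtggagccgcc
ALDH1A3 chr15:100879776-100879805, plus strand: ctcgggcgggagGCGTGgggcgctgcataa
Over the 9 windows of the 7 members in the table, the hypoxia core also occurred in the ALDH1B1 window, with 1 match, and in the 2 ALDH3A2 windows, with 1 and 4 matches. A match is a string of letters and does not show binding.

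ALDH1A1 (ENSG00000165092, chr9:72900662-73080442, minus strand) encodes the cytosolic retinaldehyde dehydrogenase best known as a stem cell marker. It measured 1.97, 3.59 and 1.77 TPM in U87 sensitive and 0.386, 0.346 and 0.137 TPM in U87 resistant libraries. All 3 resistant values lay below all sensitive values. It fell by 1.38 on the log2 scale (SE 0.22, limma adjusted p = 0.00314), from 2.44 ± 1.0003 to 0.289 ± 0.134 TPM (SD, n = 3 each). In U118 it was below the filter, at 0.382, 0 and 0.262 TPM in sensitive and 0, 0 and 0.0333 TPM in resistant libraries, and the groups overlapped. The difference between the lines was 1.13 (limma interaction adjusted p = 0.00503), but the call was lost with pseudocounts of 0.1 and 0.01 TPM (adjusted p = 0.149 and 0.864), and the difference was under 1, at 0.91 and 0.999, without U87 sensitive replicate 2 or U118 sensitive replicate 2.

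The RefSeq promoter window of ALDH1A1 was poor in GC beside that of ALDH1A3, with 40.3% GC and 7 CpG against 81.7% and 46, and it held no match to the hypoxia core, to the antioxidant response element core TGACNNNGC or to TATAAA. Its 247 bases outside GENCODE exons, which lie in an intron of a longer ALDH1A1 transcript, are shown for that contrast, with CG in capitals.
ALDH1A1 chr9:72953057-72953303, minus strand: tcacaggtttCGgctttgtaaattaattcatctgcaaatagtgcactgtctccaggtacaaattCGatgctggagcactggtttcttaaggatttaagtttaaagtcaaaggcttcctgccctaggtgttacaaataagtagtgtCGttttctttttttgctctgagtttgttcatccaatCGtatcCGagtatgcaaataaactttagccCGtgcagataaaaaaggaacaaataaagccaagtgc

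The mitochondrial aldehyde dehydrogenases ALDH2 and ALDH1B1 differed from each other. ALDH2 (ENSG00000111275, chr12:111766887-111817529), the main enzyme of acetaldehyde oxidation, measured 12.03, 41.9 and 17.4 TPM in U87 sensitive and 4.66, 4.08 and 4.57 TPM in U87 resistant libraries. The sensitive libraries were spread widely, with replicate 2 well above the others, and the lowest of them was still above every resistant library. ALDH2 fell by 2.001 on the log2 scale (SE 0.41, limma adjusted p = 0.00847), from 23.8 ± 15.95 to 4.44 ± 0.31 TPM (SD, n = 3 each). The sensitive mean was 14.7 TPM without replicate 2, and the log2 fold change was then -1.51 (limma adjusted p = 0.0014).

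In U118 sensitive libraries ALDH2 was listed at 0.000292, 0 and 0 TPM, and in the resistant libraries it was at 3.05, 1.57 and 0.657 TPM. Only 2 of the 6 libraries reached 1 TPM, so the gene was below the filter. The groups did not overlap. With no filter it was called higher (limma adjusted p = 0.0303), and no fold is given against libraries listed at 0. The change in U118 lay above that in U87 by 3.37 on the log2 scale (SE 0.55, limma interaction adjusted p = 0.000409), with ALDH2 lower in resistant cells of the one line and higher in those of the other. These are RNA values. For protein, the study lists ALDH2 as lower, and ALDH1A3 as higher, in aggregation cells of both lines. The listed directions of ALDH2 RNA and protein thus differ in U118. There the RNA was below the filter and the identity of the cells is in doubt, so no more is read from this.

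ALDH1B1 (ENSG00000137124, chr9:38392664-38398661), the other acetaldehyde enzyme of mitochondria, was at 27.7, 31.1 and 30.5 TPM in U87 sensitive and 28.0, 23.4 and 24.9 TPM in U87 resistant libraries. In U118 it was at 21.5, 23.6 and 20.4 against 22.5, 14.9 and 17.1 TPM. The groups overlapped in both lines. The log2 fold changes were -0.22 (95% interval -0.48 to 0.04, limma adjusted p = 0.152) and -0.27 (-0.79 to 0.25, adjusted p = 0.344), and both were positive, 0.05 and 0.27, when libraries were scaled by the median ratio of their genes.

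The folate members ALDH1L1 and ALDH1L2 catalyze the same reaction in different compartments and did not move together. ALDH1L1 (ENSG00000144908, chr3:126103562-126197994), which also serves as an astrocyte marker, measured 24.1, 19.99 and 23.2 TPM in U87 sensitive and 4.54, 4.03 and 4.37 TPM in U87 resistant libraries. The values within each group were close, and the groups were far apart. It fell by 2.14 on the log2 scale (SE 0.13, limma adjusted p = 0.000103), so that sensitive cells held 5.20 times as much. In U118 it was near 0, at 0.0855 to 0.135 TPM in sensitive and 0.0228 to 0.0542 TPM in resistant libraries, below the filter. The U118 groups did not overlap, and the sensitive mean was 2.58 times the resistant mean, so the direction was that of U87. At such levels the value of 1 TPM added to each library leaves little change to be seen. The difference between the lines was 2.05 (limma interaction adjusted p = 7.09e-06) and 1.16 with a pseudocount of 0.01 TPM (adjusted p = 0.0852).

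Genes beside ALDH1L1 also had lower values in U87 resistant cells. Its 10 nearest tested genes were taken equally from each side, by start position and at any distance. Of these, 4 were called lower and 0 higher, against 7.79% and 3.03% of all genes tested. Their median log2 fold change was -0.95 against -0.24 for all genes. The adjacent SLC41A3 (chr3:126006355-126101561), a magnesium transporter named here after its value was seen, went from 47.4 to 16.2 TPM. No other member had more than 1 of its 10 nearest genes called in U87. In U118, where ALDH1L1 was near 0, 3 of its 10 nearest tested genes were called lower and 0 higher. There, 26.6% and 8.64% of all genes tested were.

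ALDH1L2 (ENSG00000136010, chr12:105019784-105084577) was at 1.57, 2.54 and 1.62 TPM in U87 sensitive and 1.84, 1.90 and 2.08 TPM in U87 resistant libraries, which overlapped. Its U87 change was 0.03 (95% interval -0.37 to 0.43, limma adjusted p = 0.906). In U118 it was at 2.84, 2.43 and 4.26 TPM in sensitive and 1.16, 0.811 and 1.45 TPM in resistant libraries, with no overlap. The U118 change of -0.95 (SE 0.23, limma adjusted p = 0.00875) passed the p threshold and missed the fold threshold. It was called with pseudocounts of 0.1 and 0.01 TPM, and without U118 sensitive replicate 1, U118 sensitive replicate 2 or U118 resistant replicate 3, at -1.001 to -1.08. Without U118 sensitive replicate 3 or U118 resistant replicate 2 it was smaller, at -0.78 and -0.84. Under median-ratio scaling it was -0.58 and missed the p threshold as well (limma adjusted p = 0.0603).

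ALDH7A1 (ENSG00000164904, chr5:126531200-126595418, minus strand), the antiquitin of the lysine pathway, had the largest fall of the members in U118. It measured 48.3, 48.3 and 36.0 TPM in U118 sensitive libraries and was listed at 0, 0 and 0.0348 TPM in resistant libraries. It went from the second most abundant member by mean to about the level of the lowest. Its log2 fold change was -5.47 (SE 0.23, limma adjusted p = 5.24e-07), which reflects the value of 1 TPM added to each library and is no measure of the fold. In U87 it was at 12.6, 17.8 and 16.3 TPM in sensitive and 12.3, 12.1 and 17.9 TPM in resistant libraries, which overlapped, with a change of -0.14 (95% interval -0.61 to 0.33, limma adjusted p = 0.625). The difference between the lines was -5.33 (SE 0.29, limma interaction adjusted p = 3.08e-08), in a test in which 18.5% of genes were called lower.

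The 10 tested genes nearest to ALDH7A1, again taken equally from each side, spanned chr5:123023250-128083172. All had means above 1 TPM in U118 resistant cells. PHAX, the next tested gene on one side, was not called. Its mean was 27.6 TPM in U118 sensitive and 15.2 TPM in U118 resistant cells. GRAMD2B, the next on the other side, had the largest fall of the 10, of 2.17 on the log2 scale, from 9.59 to 1.39 TPM. Of the 10, 4 were called lower and 1 higher in U118, against 26.6% and 8.64% of all genes tested. Neighbors of ALDH3A1 were unlike these. Of its 10 nearest tested genes, 3 were called lower and 2 higher in U118. The 3 called lower had means of 0 TPM in U118 resistant cells, so they passed the filter through the sensitive group and had to differ. These neighbors lie outside the naming rule and were chosen after their values were seen. The 4 ALDH7A1 pseudogenes, which could share reads with it, were at or below 0.209 TPM in every library. The RefSeq promoter window had 64.3% GC and no match to the motifs searched. Its 51 bases before the GENCODE gene are shown, with CG in capitals, because this promoter belongs to the member with the largest fall in U118.
ALDH7A1 chr5:126595419-126595469, minus strand: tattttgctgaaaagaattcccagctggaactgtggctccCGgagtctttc

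**Figure D2:**
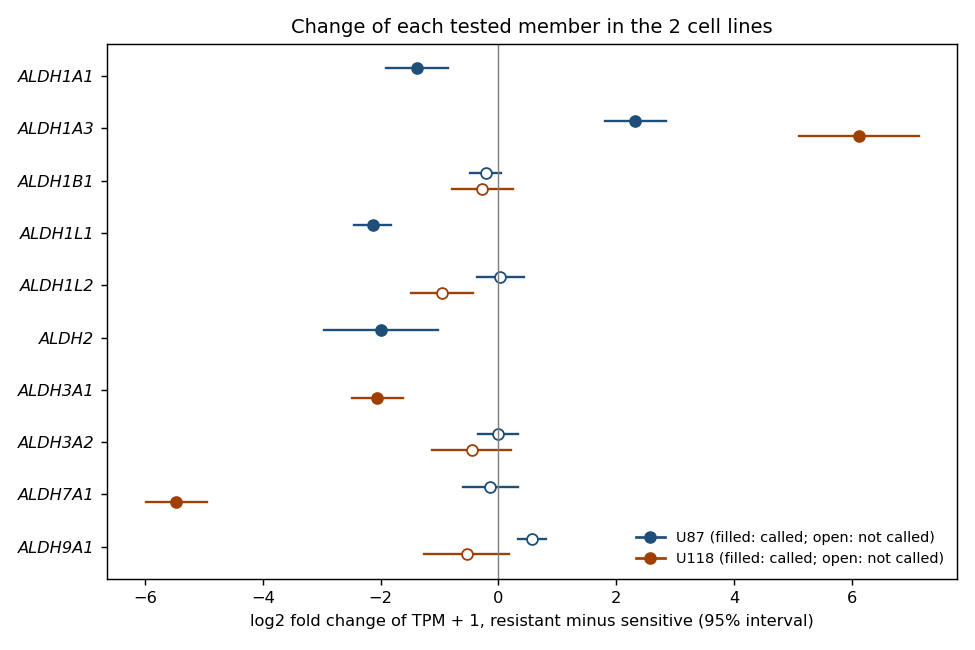
Log2 fold change of TPM + 1, resistant minus sensitive (horizontal axis), with its 95% interval, for each tested member in U87 and U118. Filled points were called and open points were not. ALDH1A3 lay to the right in both lines (2.33 and 6.12), and ALDH7A1 in U118 lay farthest to the left (-5.47).

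Of the members that act on fatty and aromatic aldehydes, ALDH3A1 fell in U118 and ALDH3A2 was not called in either line. ALDH3A1 (ENSG00000108602, chr17:19737984-19748943), known from cornea and as an aryl hydrocarbon receptor target, was at 3.28, 4.22 and 2.78 TPM in U118 sensitive libraries and listed at 0, 0 and 0.176 TPM in U118 resistant libraries. The groups were well separated, and the log2 fold change was -2.05 (SE 0.19, limma adjusted p = 4.05e-05). In U87 it was listed at 0 in the 3 sensitive libraries and at 0.107, 0 and 0.0194 TPM in the resistant libraries. The difference between the lines was -2.11 (limma interaction adjusted p = 2.32e-06).

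ALDH3A2 (ENSG00000072210, chr17:19648136-19677598), the microsomal enzyme lost in Sjögren-Larsson syndrome, measured 18.1, 19.7 and 17.0 TPM in U87 sensitive and 21.9, 16.7 and 16.2 TPM in U87 resistant libraries. In U118 it was at 37.6, 35.3 and 56.0 against 45.1, 24.6 and 25.4 TPM. The groups overlapped in both lines. The changes were -0.01 (95% interval -0.36 to 0.34, limma adjusted p = 0.970) in U87 and -0.45 (-1.12 to 0.22, adjusted p = 0.223) in U118, and both were positive, 0.26 and 0.10, under median-ratio scaling. Without U118 resistant replicate 1, the U118 change was -0.73 (limma adjusted p = 0.0214), and without U118 sensitive replicate 3 it was -0.25 (adjusted p = 0.525).

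ALDH9A1 (ENSG00000143149, chr1:165662216-165698863), which acts in carnitine and polyamine metabolism, was the most abundant member by mean in every group but U118 resistant. It measured 32.1, 36.2 and 35.9 TPM in U87 sensitive and 53.3, 47.0 and 55.8 TPM in U87 resistant libraries, with no overlap. The U87 change of 0.57 (95% interval 0.32 to 0.81, limma adjusted p = 0.00516) passed the p threshold, and its 1.497-fold size was under the fold threshold. In U118 it was at 62.2, 59.4 and 46.0 TPM in sensitive and 63.6, 27.6 and 30.7 TPM in resistant libraries, with resistant replicate 1 above the whole sensitive group. The U118 change was -0.54 (95% interval -1.26 to 0.18, limma adjusted p = 0.184), -0.91 (adjusted p = 0.00347) without that replicate and 0.02 under median-ratio scaling. The difference between the lines, -1.11 (limma interaction adjusted p = 0.0306), lost its call under median-ratio scaling (-0.83), with no filter (adjusted p = 0.0708) and in 8 of the 12 fits that left out 1 library.

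Over all 10 members the difference between the lines was called for 7, 4 with a higher and 3 with a lower change in U118, where 30.5% of all genes were called. ALDH1A1 and ALDH3A1 passed the filter of this test through 1 group alone, the U87 sensitive and the U118 sensitive libraries, so their changes had to differ and the count carries no weight of its own. ALDH1B1 (-0.05, 95% interval -0.57 to 0.46), ALDH1L2 (-0.98, -1.61 to -0.36, limma interaction adjusted p = 0.0169) and ALDH3A2 (-0.44, -1.1999 to 0.31) were not called. The library ranges of the groups did not overlap for 5 of the 9 members tested in U87, against 53.4% of all genes, and for 4 of the 7 tested in U118, against 58.6%. These shares were near the background.

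**Figure D3:**
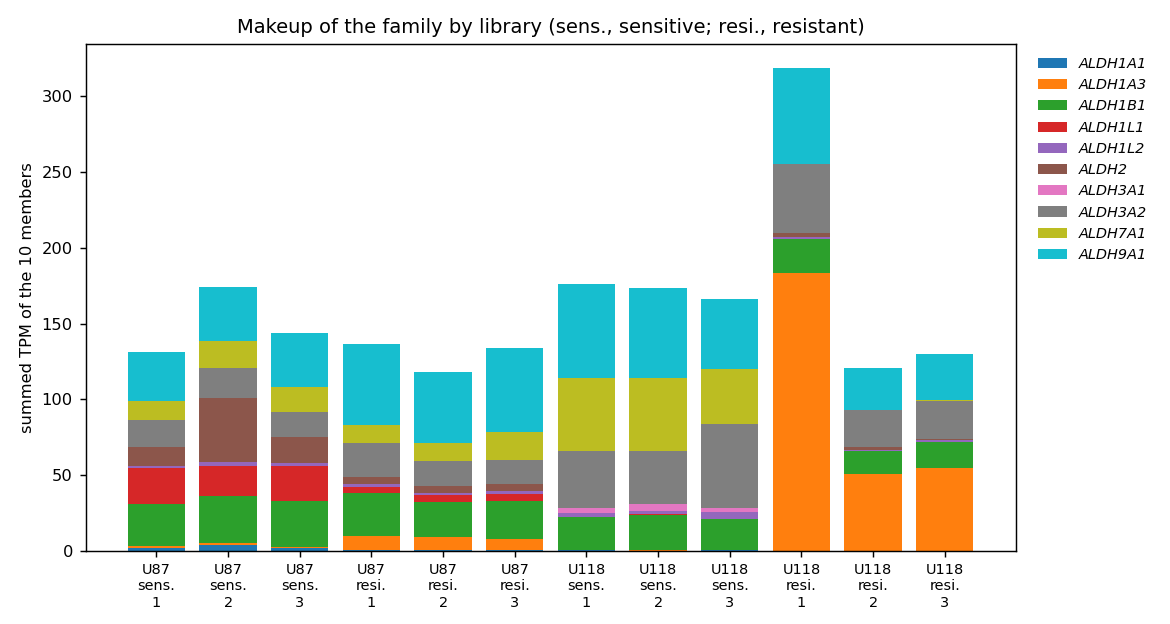
Summed TPM of the 10 members (vertical axis) in each library, stacked by member. ALDH1A3 took 41.8% to 57.5% of the sum in U118 resistant libraries and at most 0.160% in U118 sensitive libraries, and U118 resistant replicate 1 had the largest sum, 319 TPM.

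Within U87 sensitive cells the order of levels by mean was ALDH9A1, ALDH1B1, ALDH2, ALDH1L1, ALDH3A2 and ALDH7A1, then ALDH1A1, ALDH1L2 and ALDH1A3 at 2.44 TPM or less, and ALDH3A1 listed at 0. The library ranges of ALDH1B1, ALDH2 and ALDH1L1 overlapped in turn, as did those of ALDH3A2 and ALDH7A1 and of ALDH1A1 and ALDH1L2. Within every U87 sensitive library, ALDH3A2 was above ALDH7A1 and ALDH1A1 was above ALDH1L2. In U87 resistant cells ALDH1A3 had moved up to the fifth place, above ALDH2 and ALDH1L1. The ranges of ALDH2 and ALDH1L1 overlapped, with ALDH2 the higher within every library. In U118 sensitive cells ALDH9A1, ALDH7A1 and ALDH3A2 overlapped in turn at the top, with ALDH9A1 above ALDH7A1 within every library. In U118 resistant cells the ranges of ALDH1A3, ALDH9A1 and ALDH3A2 overlapped in turn. Within every library, though, ALDH1A3 was above ALDH9A1, and ALDH9A1 was above ALDH3A2. The 4 lowest, ALDH3A1, ALDH1L1, ALDH7A1 and ALDH1A1, had means of 0.0585 TPM or less.

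The summed level of the family ranged from 131 to 174 TPM in U87 sensitive, 118.3 to 137 TPM in U87 resistant and 166 to 176 TPM in U118 sensitive libraries. It was 319, 120 and 130 TPM in U118 resistant libraries, so the group straddled the sensitive one. The makeup differed more than the sum. In U87, ALDH9A1 took 20.8% to 24.9% of the sum in sensitive and 39.1% to 41.7% in resistant libraries, while ALDH1L1 took 11.5% to 18.4% and 3.26% to 3.41%. In U118, ALDH7A1 took 21.7% to 27.8% of the sum in sensitive and at most 0.0268% in resistant libraries.

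By distance of group means on the log2(TPM + 1) scale, U118 resistant cells lay nearest to U118 sensitive cells for ALDH1A1, ALDH1B1, ALDH1L1 and ALDH3A2. They lay nearest to U87 resistant cells for ALDH1A3, ALDH2, ALDH3A1 and ALDH7A1, and to U87 sensitive cells for ALDH1L2 and ALDH9A1. Shares over all genes were not computed, so this shows nothing particular to the members. Some distances were close: 0.02 to U87 resistant and 0.08 to U87 sensitive cells for ALDH3A1, which was near 0 TPM in these groups. For ALDH1L2 they were 0.44 to U87 sensitive and 0.47 to U87 resistant cells. For ALDH1A1 they were 0.25 to U118 sensitive and 0.35 to U87 resistant cells. The 2 tables were made separately, so these distances are a description. For ALDH7A1 the nearest group was still 3.88 away.

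The median change of all genes tested was -0.24 in U87 and -0.52 in U118. The TPM of a library sum to the same total, and mitochondrially encoded genes took 12.9% to 16.9% of it in U87 sensitive, 22.2% to 23.7% in U87 resistant, 7.42% to 19.7% in U118 sensitive and 13.2% to 29.9% in U118 resistant libraries; their part in the changes of the members was not tested beyond the scalings given here. Relative to the median of all genes, ALDH1A3 changed by 2.57 in U87 and 6.64 in U118, and ALDH1L1 by -1.89 and ALDH2 by -1.76 in U87. The share of called genes that were higher was 28.0% in U87 and 24.5% in U118, and 56.6% and 53.8% under median-ratio scaling. The 4 members called in U87 and the 3 called in U118 were called in the same direction under median-ratio scaling and with mitochondrially encoded genes removed.

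**Figure D4:**
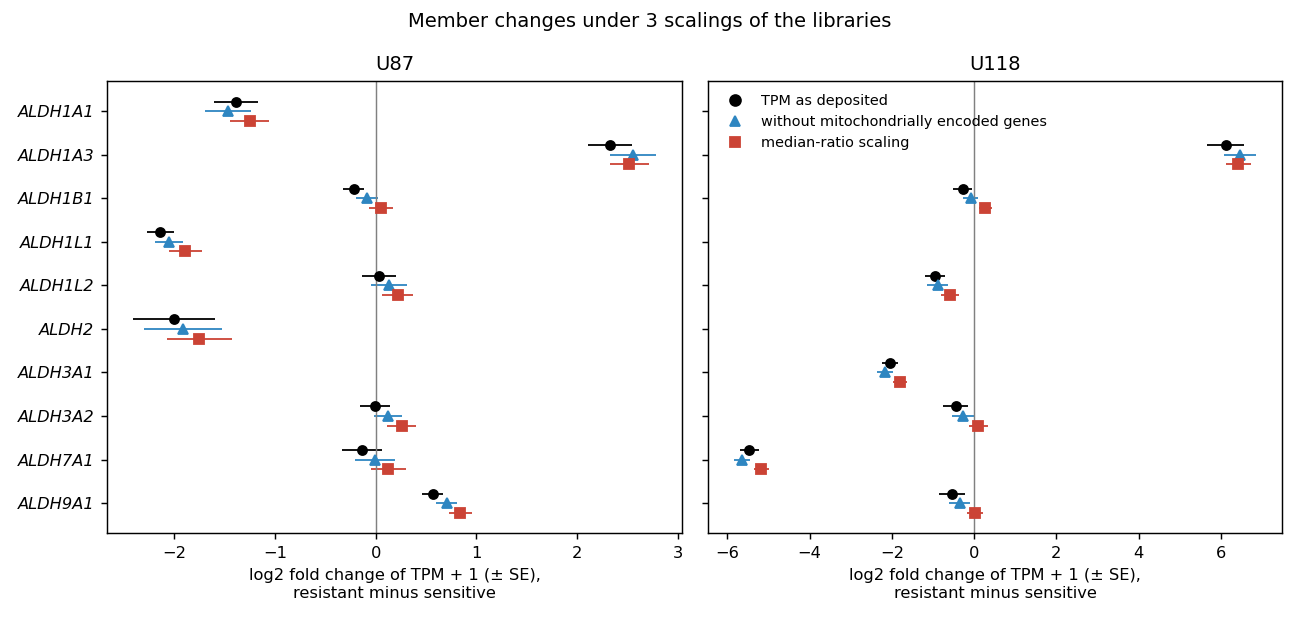
Log2 fold change of TPM + 1 with its SE (horizontal axis), resistant minus sensitive, for each tested member in U87 and U118 with TPM as deposited, without mitochondrially encoded genes and with median-ratio scaling. The called members kept their sides of 0, and those near 0, such as ALDH1B1 (-0.22 and 0.05 in U87), crossed it.

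Genes with the most similar pattern over the 12 libraries were listed by Pearson r of log2(TPM + 1) among 16382 genes, as a description in which the points share line and group. For ALDH1A3 these were SERPIND1 (r = 0.990), PLAAT4 (0.982) and GDF15 (0.982). GDF15, a stress-induced cytokine, had means of 2.72, 28.7, 1.58 and 423 TPM in U87 sensitive, U87 resistant, U118 sensitive and U118 resistant cells. For ALDH2 they were GRID1 (0.978), RAB37 (0.973) and LINC02979 (0.972).

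The pathways around these enzymes were described with lists of related genes. Of the 19 retinoid pathway genes reported, 11 were tested in U87 and 12 in U118. In U87 3 of these were called higher and 0 lower, with a list median of 0.04 against -0.24 for all genes, of which 3.03% were called higher and 7.79% lower. In U118 3 were called higher and 3 lower, with a median of -0.58 against -0.52 for all genes, of which 8.64% were called higher and 26.6% lower. Of the list genes named here and in the next paragraphs, CYP26B1 in U87 and DHRS3, FABP5, DHRS9 and GLDC in U118 passed the filter through the group in which they were high, with at most 1 library of the other group at 1 TPM, so they had to differ. DHRS3, which reduces retinaldehyde to retinol and is a retinoic acid target, was called in both lines, from 1.202 ± 0.19 to 5.35 ± 0.28 TPM in U87 (log2 fold change 1.53, limma adjusted p = 0.000344) and from 0.379 ± 0.254 to 59.5 ± 6.75 TPM in U118 (5.46, adjusted p = 6.86e-07; SD, n = 3 each).

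CRABP2, which carries retinoic acid to its nuclear receptor, was called in opposite directions, from 29.6 ± 5.13 to 72.2 ± 5.15 TPM in U87 (1.27, limma adjusted p = 0.000723) and from 38.8 ± 6.86 to 4.99 ± 2.55 TPM in U118 (-2.80, adjusted p = 0.000131; SD, n = 3 each). The largest rise in U87 was of CYP26B1, which degrades retinoic acid, from 0.015 ± 0.026 to 4.995 ± 0.15 TPM. In U118 FABP5, which carries fatty acids and retinoic acid, rose from 0.0311 ± 0.0539 to 99.6 ± 14.3 TPM. DHRS9, a retinol dehydrogenase, fell from 42.7 ± 6.02 to 1.02 ± 0.67 TPM. The calls of the 5 retinoid genes named here held under median-ratio scaling, which gave 4 higher and 2 lower in U118.

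Of 16 folate one-carbon genes, 14 were tested in each line, and the list medians were -0.15 in U87 and -0.42 in U118. In U87 2 were called lower and 0 higher, against 7.79% and 3.03% of all genes, led by SHMT1, the cytosolic serine hydroxymethyltransferase, from 69.1 ± 1.82 to 28.0 ± 1.08 TPM (log2 fold change -1.28, limma adjusted p = 0.000107), and median-ratio scaling left 1 of the 2. In U118 1 was called higher and 1 lower, against 8.64% and 26.6% of all genes. MTHFD2, the mitochondrial methylene-tetrahydrofolate dehydrogenase, went from 15.4 ± 1.86 to 42.3 ± 28.0 TPM (1.23, limma adjusted p = 0.0268), and GLDC, the glycine decarboxylase, from 12.8 ± 2.44 to 0.429 ± 0.411 TPM (-3.30, adjusted p = 1.71e-05; SD, n = 3 each).

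The other 9 aldehyde dehydrogenase genes had 6 tested in each line. In U87 0 were called, against 10.8% of all genes tested, with a median of -0.15. In U118 0 were called higher and 1 lower, against 8.64% and 26.6% of all genes tested. The 1 called lower was ALDH16A1, from 27.2 ± 7.04 to 6.73 ± 2.30 TPM (-1.87, limma adjusted p = 0.000947; SD, n = 3 each). Median-ratio scaling added ALDH3B1 as higher, at 1.25. Of 20 other genes of aldehyde and alcohol metabolism 13 were tested in each line, and 0 were called in U87, against 10.8% of all genes tested. In U118 1 was called higher and 3 lower, against 8.64% and 26.6%, so both shares were near those of all genes. AKR1B1, the aldose reductase, rose from 478 ± 134 to 1701 ± 122 TPM (1.87, limma adjusted p = 0.00043). The 3 lower were led by AOX1, the aldehyde oxidase, from 64.6 ± 8.59 to 14.5 ± 6.76 TPM (-2.16, limma adjusted p = 0.000463). Under median-ratio scaling 1 of these 3 was still called lower.

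**Figure D5:**
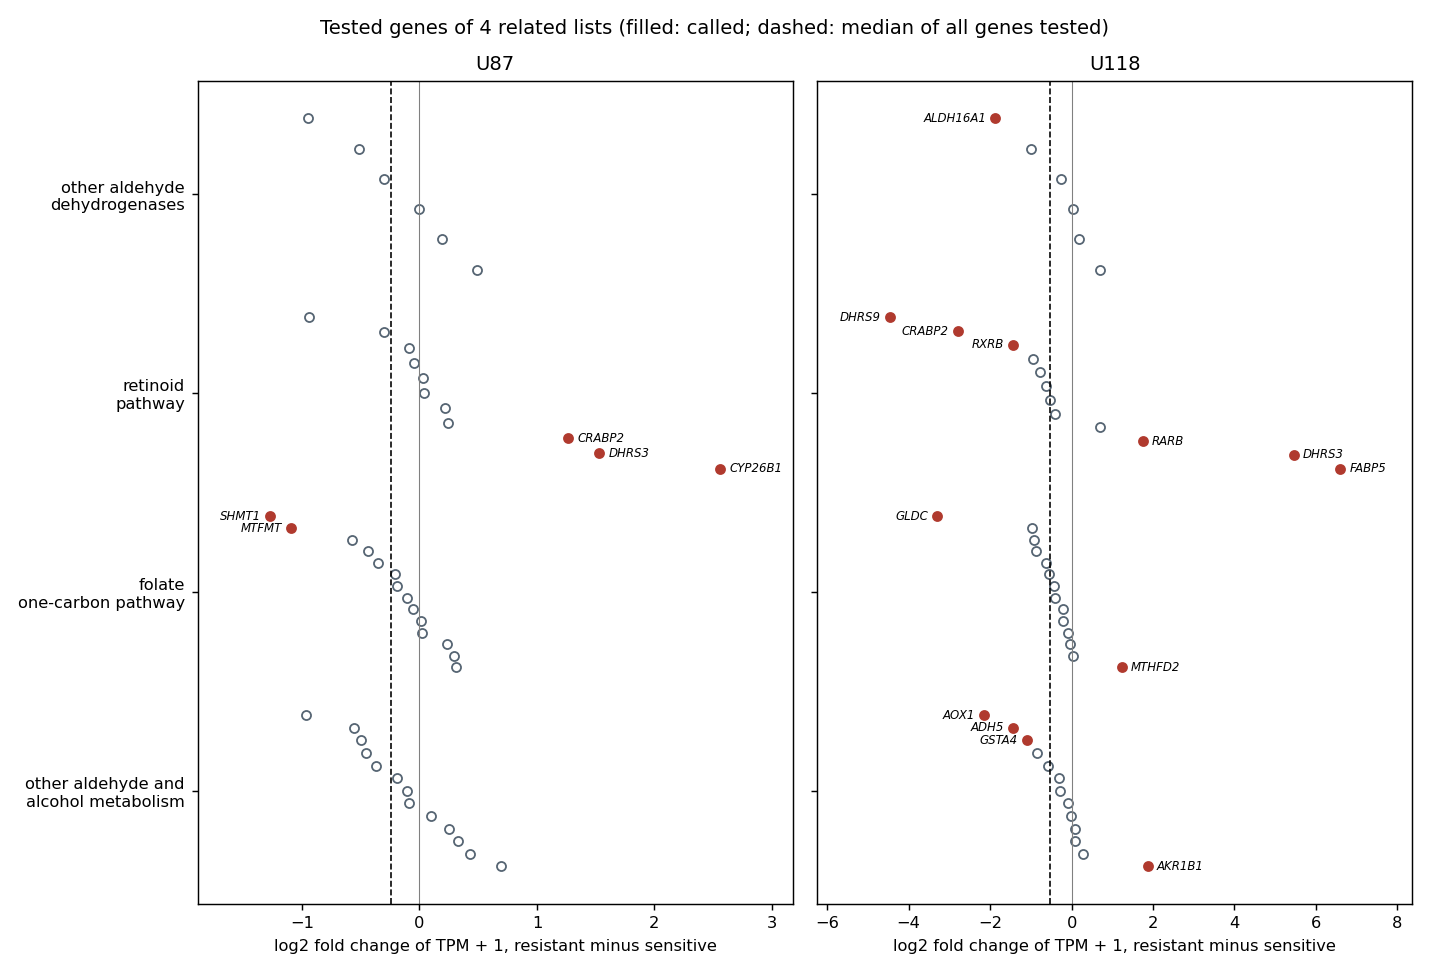
Log2 fold change of TPM + 1 (horizontal axis), resistant minus sensitive, of the tested genes reported from the 4 lists in U87 and U118. Filled, labelled points were called, and the dashed line is the median of all genes tested (-0.24 and -0.52). The retinoid list held the widest spread in both lines, with DHRS3 to the right in each.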

How the data were processed

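mRNA of U87 and U118 cells was sequenced from mRNA-selected libraries. The authors deposited TPM per gene, 1 table per cell line. The submitters' processing notes name FastQC 0.11.2, Trimmomatic 0.36, HISAT2 2.0, bedtools 2.26.0 and GRCh38; the annotation and the tool that made the TPM are not given in the sources used here. Of 58174 identifiers, 57392 had a symbol, and 57836 are in GENCODE 29 (Ensembl 94), whose positions are printed. Read counts, and with them library depth, cannot be had from TPM. Groups came from the sample labels, and no 2 libraries held identical values.

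On log2(TPM + 1), limma 3.58.1 under R 4.3.3 (lmFit, then eBayes with an intensity trend) was fitted over all genes with at least 1 TPM in 3 of the 6 libraries of a line, or in 3 of all 12 for the difference between the lines, an interaction term. P-values were two-sided and adjusted by the Benjamini-Hochberg method over all genes tested. The fit was tested on simulated data. Promoters came from the RefSeq table (GRCh38.p14), which held windows of 7 of the 10 members (9 windows); those of ALDH2, ALDH1L2 and ALDH3A1 are not analysed here. Tables and figures were made with pandas 2.3.3 and matplotlib 3.10.9 in Python 3.11.15.

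The members and lists were chosen with earlier results of these data known. The text names the 10 members, the list genes called in both lines, the called gene with the largest rise and fall per list and line, and the 3 genes most similar to ALDH1A3 and to ALDH2. 1 gene of the retinoid list is not reported here and was left out of that list's counts and median. Alternatives were pseudocounts of 0.1 and 0.01 TPM, no filter, a minimum mean of 10 TPM, scaling by median ratios, TPM without mitochondrially encoded genes, a replicate block, eBayes without trend, no fold threshold, and leaving out each library.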

Additional observations from a re-analysis of the deposited data

Results flagged for a closer look

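For 7 members the resistant minus sensitive difference was not the same in the libraries labelled U118 as in those labelled U87 by the limma interaction test over all 12 libraries, on the log2(TPM + 1) scale (U118 change minus U87 change). The U118 resistant libraries had rank correlations of 0.895 to 0.913 with U87 libraries and of 0.808 to 0.839 with U118 sensitive libraries, so a change within the U118 line and a difference between unlike cells cannot be told apart. The difference was 3.79 for ALDH1A3, higher in resistant libraries of both lines, and 3.37 for ALDH2, lower in U87 resistant and higher in U118 resistant libraries. It was 2.05 for ALDH1L1 and 1.13 for ALDH1A1, which were near 0 in all U118 libraries. It was -5.33 for ALDH7A1 and -2.11 for ALDH3A1, both listed at 0 in 2 of the 3 U118 resistant libraries. For ALDH9A1 it was -1.11, with U118 resistant replicate 1 apart from its group. In this test 30.5% of all genes were called, and ALDH1A1 and ALDH3A1 had to differ, having passed its filter through 1 group alone. Each line had its own table, so a line and its table cannot be told apart.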

How the results depend on the processing

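Counts of genes called higher or lower depended on the fold threshold, the filter and the scaling. In U87, 419 were called higher and 1078 lower, against 1306 and 4107 with no fold threshold, 175 and 630 at a mean of at least 10 TPM, 685 and 526 under median-ratio scaling, and 404 to 482 and 941 to 1416 when 1 library was left out. In U118, 1341 and 4134 were called, against 536 and 2152 at a mean of at least 10 TPM, 2330 and 2004 under median-ratio scaling, and 1228 to 1421 and 3388 to 5643 when 1 library was left out. For the difference between the lines, 1972 and 3025 were called, against 963 and 1100 at a mean of at least 10 TPM, and 1822 to 2100 and 2542 to 4292 when 1 library was left out. Members called higher numbered 2 with no fold threshold and 0 at a mean of at least 10 TPM in U87, where ALDH1A3 was not tested, and 2 in U118 with no filter. Members called lower in U118 numbered 1 at a mean of at least 10 TPM and 2 to 3 when 1 library was left out. For the difference, members called higher numbered 2 with a pseudocount of 0.01 TPM, 1 at a mean of at least 10 TPM and 3 to 4 with 1 library left out, where ALDH1A1 was lost, and members called lower 2 to 4, where ALDH9A1 was lost or ALDH1L2 gained.

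Changes that switched sign were of uncalled members. Median-ratio scaling gave 0.051 for ALDH1B1, 0.26 for ALDH3A2 and 0.13 for ALDH7A1 in U87, 0.27 for ALDH1B1, 0.10 for ALDH3A2 and 0.020 for ALDH9A1 in U118, and 0.21 for the difference of ALDH1B1. Without mitochondrially encoded genes ALDH3A2 was at 0.12 in U87 and the difference of ALDH1B1 at 0.0026. With 1 library left out, ALDH1L2 ranged from -0.052 to 0.18 and ALDH3A2 from -0.14 to 0.069 in U87, and the difference of ALDH1B1 from -0.21 to 0.072.

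Same-numbered libraries of a line did not deviate together in U87 (correlations of -0.07 to 0.01) and did so weakly in U118 (0.05 to 0.14). All differently numbered pairs of U118 were lower, at -0.11 to 0.04. The main fits did not pair the libraries. With the replicate number as a block, 414 and 1040 genes were called higher and lower in U87, 1363 and 4218 in U118 and 1985 and 3079 for the difference, and no member's call changed. Depth is unknown, so a value listed at 0 gives no limit on the level.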
